A study of Mus musculus with 8 samples.

Results

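Motile cilia genes of the ependyma were followed in hippocampal RNA of young and very old mice. They are Foxj1, Rsph1, Tekt1, Tekt4, Ccdc39, Ccdc153, Tmem212 and Dnah5, which is 8 of the 19751 genes to which a probe of these arrays could be matched. The genes were chosen by symbol, as genes known from multiciliated cells, and not by a measured difference between the ages. Earlier results of these data were, however, known when these genes were chosen. A total of 10 probes reported them, with 2 each for Rsph1 and Tekt1 and 1 for each other gene.

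Motile cilia are hair-like extensions that beat. Their core, the axoneme, is a ring of doublet microtubules around a central pair, which dynein arms bend, radial spokes connect and tektins line from inside. In the brain they stand in tufts on the ependymal cells that line the ventricles and move the cerebrospinal fluid, and fewer occur on the cells of the choroid plexus, the tissue that secretes that fluid. The transcription factor Foxj1 switches on the genes of this structure. Neurons and astrocytes carry a single primary cilium instead, which shares its transport machinery with motile cilia but lacks dynein arms and spokes.

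The tissue was the whole hippocampus, dissected by hand from untreated wild type mice of the strain C57BL/6J. The mice were kept in their home cage and were by their labels 3 months old (3M, 4 samples) or 29 months old (29M, 4 samples). Per the study's methods, its oldest mice were bought when already old and then held further in its own rooms. The hippocampus borders on the lateral ventricle, so a dissection of it can hold ependyma and choroid plexus in varying amounts. In such bulk RNA, fewer cells of a type and less RNA per cell cannot be told apart. The labels do not say that each sample came from a mouse of its own, and p-values then measure only the spread between these samples.

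Each sample was labelled with Cy3 and read on 1 array of 43020 spots for 39429 probes, with both ages present on each of 3 slides. All values are normalized log2 intensities, on which a difference of 1 is a doubling, and no probe is set against another, since brightness differs between probes for the same amount of RNA. The share of spots well above background was 76.2 to 85.0%, no spot was saturated, and the arrays correlated at r from 0.991 to 0.998. Replicate 1 of 3M had the lowest share and was the only array that the scanner software marked for evaluation. A gene was called at a Benjamini-Hochberg adjusted p under 0.1 in limma together with an absolute log2 change of at least 0.5. By this rule 1.58% of the genes tested (1 probe a gene) were higher in 29M and 0.699% were lower, and of all probes 1.25% were higher and 0.817% lower. With 8 arrays, their number limits the precision of every value below.

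All 8 genes were well above background on all 8 arrays. So were 119 of the 127 other motile cilium genes with a tested probe, 12 of 12 ependymal genes that code for no part of the axoneme, and 23 of 23 choroid plexus genes. All 15 neuronal marker genes and 16050 of all 19742 genes tested were above background as well, so these counts do not tell one cell type from another.

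The promoters of 3 of the genes are shown because the transcripts varied most between arrays (Ccdc153, Tmem212) or because the letters searched for lay close to the start site (Tekt1). Each is the 250 bases before the transcription start in RefSeq, assembly GRCm38.p6, written along the gene's strand. Capitals mark the half-site of the X-box, GTTGCC or its reverse complement GGCAAC, the motif that RFX factors are known to bind at ciliary genes.

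Ccdc153, chr9:44240427-44240676, plus strand: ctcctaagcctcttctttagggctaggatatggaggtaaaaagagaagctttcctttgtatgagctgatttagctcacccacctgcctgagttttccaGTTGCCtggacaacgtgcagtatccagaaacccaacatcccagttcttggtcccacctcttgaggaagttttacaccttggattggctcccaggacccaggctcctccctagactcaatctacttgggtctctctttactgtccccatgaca

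Tekt1, chr11:72361883-72362132, minus strand: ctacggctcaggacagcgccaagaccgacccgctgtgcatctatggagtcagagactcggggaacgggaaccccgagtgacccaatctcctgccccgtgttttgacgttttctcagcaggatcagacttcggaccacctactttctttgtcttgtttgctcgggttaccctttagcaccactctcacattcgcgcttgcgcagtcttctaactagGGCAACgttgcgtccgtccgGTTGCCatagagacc

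Tmem212, chr3:27896369-27896618, minus strand: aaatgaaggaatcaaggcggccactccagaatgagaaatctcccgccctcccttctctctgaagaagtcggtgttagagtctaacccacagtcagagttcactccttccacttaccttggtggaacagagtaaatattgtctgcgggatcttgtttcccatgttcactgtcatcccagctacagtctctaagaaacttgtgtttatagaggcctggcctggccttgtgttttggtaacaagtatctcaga

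In Ccdc153 the half-site lay at -152 to -147, counted from the start site. Tekt1 held 1 copy on its own strand, at -15 to -10, and 1 on the other strand, at -35 to -30. Both strands of this window were searched in all 32851 promoters of the RefSeq table, and 10.4% of them held the half-site. The table held 7 promoters of Tekt1 (2 of them), Tekt4, Ccdc39, Ccdc153, Tmem212 and Dnah5. Of these 7 promoters 2 held the half-site, and of 126 promoters of the other motile cilium genes 44 did (34.9%). The longer X-box, GTTNCC followed after 2 free bases by GGNAAC, was in 0.374% of all promoters and in 4 of the 126, those of Dnaaf6, Iqca, Pifo and Ccdc151, and in none of the 7. The forkhead motif GTAAACA was in 3.17% of all promoters, in 7 of the 126 and in none of the 7. A match is a run of letters in this window and not a measured binding site.

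None of the 8 genes passed the test for a difference between the ages. By limma 0 of 8 were called in either direction, and their median log2 change from 3M to 29M was -0.06, against 0.01 for all genes. Dnah5 alone had an unadjusted p under 0.05, a limit that 7.65% of all genes passed in the same direction. The SD was larger among the 3M samples than among the 29M samples for each gene but Dnah5, and replicate 3 of 3M was the lowest of all 8 arrays in 6 of the 8 genes.

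**Figure D1:**
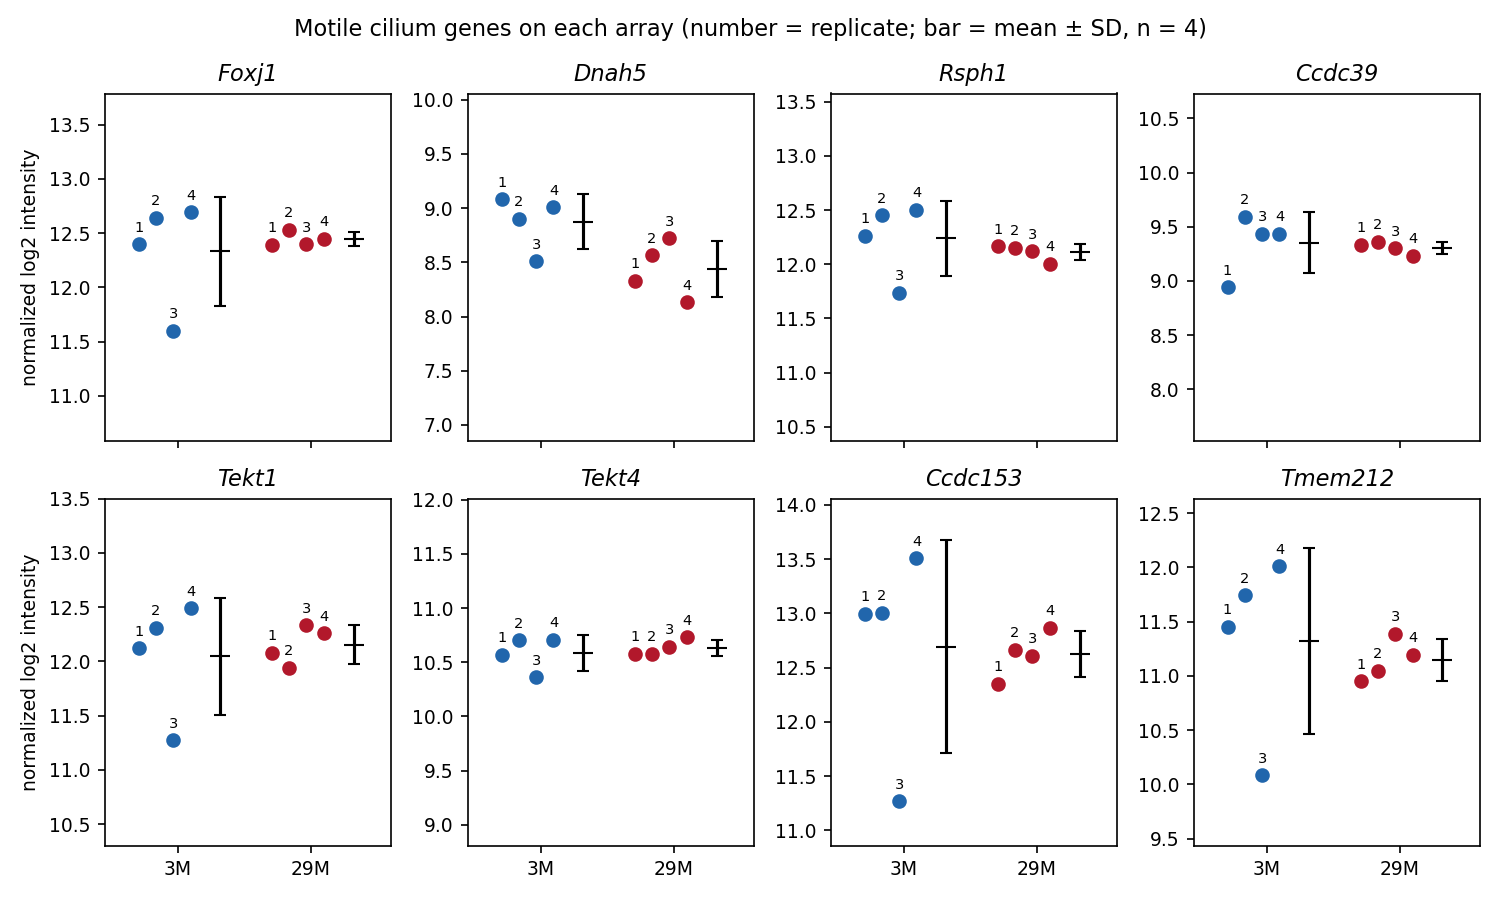
Normalized log2 intensity of the 8 genes on each array, with 3M in blue and 29M in red, replicate numbers at the points and bars for the mean ± SD (n = 4); every panel spans the same number of log2 units. Replicate 3 of 3M lies below the other arrays for Foxj1, Rsph1, Tekt1, Tekt4, Ccdc153 and Tmem212, but not for Ccdc39 or Dnah5.

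Foxj1 is the transcription factor at the head of the programme. Its log2 intensity was 12.40, 12.64, 11.60 and 12.69 in replicates 1 to 4 of 3M and 12.39, 12.53, 12.40 and 12.45 in replicates 1 to 4 of 29M. The 29M arrays lay within 0.14 of each other, and replicate 3 of 3M lay well below all 7 other arrays, so that the groups overlapped. The change was 0.11 (SE 0.21, adjusted p 0.842), which is within the spread between replicates. On the 7 arrays without replicate 3 of 3M it was -0.13 (adjusted p 0.572), with the opposite sign.

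Dnah5 is a heavy chain of the outer dynein arms, which drive the beat, and its loss is a known cause of immotile cilia. It measured 9.08, 8.90, 8.51 and 9.01 in replicates 1 to 4 of 3M and 8.33, 8.57, 8.72 and 8.13 in replicates 1 to 4 of 29M. Replicates 1, 2 and 4 of 3M stood above every 29M array, while replicate 3 lay in the 29M range. The change was -0.44 (SE 0.16, adjusted p 0.211), with an unadjusted p of 0.022, and it did not reach the call. As for Ccdc153 and Tmem212, the difference was below 0 on each slide with all arrays kept, here at -0.65 on slide 1, -0.34 on slide 2 and -0.43 on slide 3. Without that array the change was -0.56 (adjusted p 0.139).

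Rsph1 is a protein of the radial spoke head, which passes signals from the central pair to the dynein arms. It measured 12.26, 12.45, 11.74 and 12.50 in replicates 1 to 4 of 3M and 12.16, 12.15, 12.12 and 12.005 in replicates 1 to 4 of 29M. The 29M samples were tightly grouped and lay below 3 of the 4 samples of 3M, with replicate 3 lower still. The change was -0.13 (SE 0.16, adjusted p 0.733), and -0.29 (adjusted p 0.221) without replicate 3. The second probe of Rsph1 was at -0.08, and at -0.29 without that array.

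Ccdc39 is, with Ccdc40, the molecular ruler that sets the repeat along the doublets at which inner arms and spokes attach. It measured 8.94, 9.59, 9.43 and 9.44 in replicates 1 to 4 of 3M and 9.33, 9.36, 9.30 and 9.23 in replicates 1 to 4 of 29M. Here replicate 1 of 3M was the lowest array and replicate 3 was not low, and the ages overlapped. The change was -0.05 (SE 0.13, adjusted p 0.90), and -0.02 (adjusted p 0.969) without replicate 3.

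Tekt1 and Tekt4 are tektins, filament proteins of the doublet wall. Tekt1 measured 12.12, 12.31, 11.27 and 12.49 in replicates 1 to 4 of 3M and 12.08, 11.94, 12.33 and 12.26 in replicates 1 to 4 of 29M. Replicate 3 of 3M was the lowest array by a wide margin, and the other arrays overlapped between the ages. Its change was 0.11 (SE 0.24, adjusted p 0.864), and -0.15 (adjusted p 0.629) without replicate 3. The second Tekt1 probe gave 0.07 and -0.18 in the same order. Tekt4 measured 10.57, 10.704, 10.36 and 10.71 in replicates 1 to 4 of 3M and 10.58, 10.58, 10.64 and 10.73 in replicates 1 to 4 of 29M. It varied least of the tektin pair, although replicate 3 of 3M was again the lowest. Its change was 0.05 (SE 0.10, adjusted p 0.856), and -0.03 (adjusted p 0.908) without that array.

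Ccdc153 codes for a coiled-coil protein of the axoneme and is used as a marker of ependymal cells in single-cell work. It measured 12.997, 13.01, 11.27 and 13.51 in replicates 1 to 4 of 3M and 12.35, 12.66, 12.61 and 12.87 in replicates 1 to 4 of 29M. The means were 12.69 ± 0.98 in 3M and 12.62 ± 0.21 in 29M (SD, n = 4 each). Against the mean of its group's other arrays, replicate 3 of 3M was at -1.90, while those arrays all stood above every 29M array. The change was -0.07 (SE 0.41, adjusted p 0.951), and -0.55 (adjusted p 0.193) without replicate 3.

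Tmem212, a membrane protein that also marks ependymal cells, followed the same pattern. It measured 11.45, 11.74, 10.08 and 12.01 in replicates 1 to 4 of 3M and 10.95, 11.05, 11.39 and 11.20 in replicates 1 to 4 of 29M. The means were 11.32 ± 0.86 in 3M and 11.15 ± 0.19 in 29M (SD, n = 4 each). Replicate 3 of 3M differed by -1.65 from the mean of the other 3M arrays, which again all lay above the 29M arrays. The change was -0.18 (SE 0.36, adjusted p 0.849), and -0.59 (adjusted p 0.146) without replicate 3.

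Without replicate 3 of 3M all 8 genes had a change below 0, with a median of -0.22, while the median of all genes was 0.01. For Dnah5, Rsph1, Ccdc153 and Tmem212 the 3 remaining samples of 3M then lay above all 4 samples of 29M. Of all genes tested 7.35% were separated in this direction on these 7 arrays. The same 4 genes had an unadjusted p under 0.05, which 7.08% of all genes had in this direction, but the lowest adjusted p of the 8 was 0.139, and 0 of 8 were called. Replicate 3 was singled out because it was low in most of these genes, and leaving it out lowers their change by itself. The shares of all genes, which were not picked in this way, are therefore no like measure for these counts. Without replicate 4 of 3M, the array with the highest values, the median of the 8 genes was 0.07 instead. Slide 1 held replicate 1 of 3M with replicates 3 and 4 of 29M, slide 2 held replicate 2 of each age, and slide 3 held replicates 3 and 4 of 3M with replicate 1 of 29M. Within slides, the median difference of the 8 genes was -0.07 on slide 1, where 4 of 8 were below 0, and -0.32 on slide 2, where 8 of 8 were. Slide 3 gave 0.00 with that array and -0.37 without it, with 4 and then 8 of 8 genes below 0. These within-slide differences rest on 1 or 2 arrays a group and have no test. When processed signals scaled to the 75th percentile, quantile-normalized values or stabilised processed signals took the place of the main values and replicate 3 was left out, all 8 genes were again below 0. With slide as a block Ccdc39 was the exception at 0.03.

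**Figure D2:**
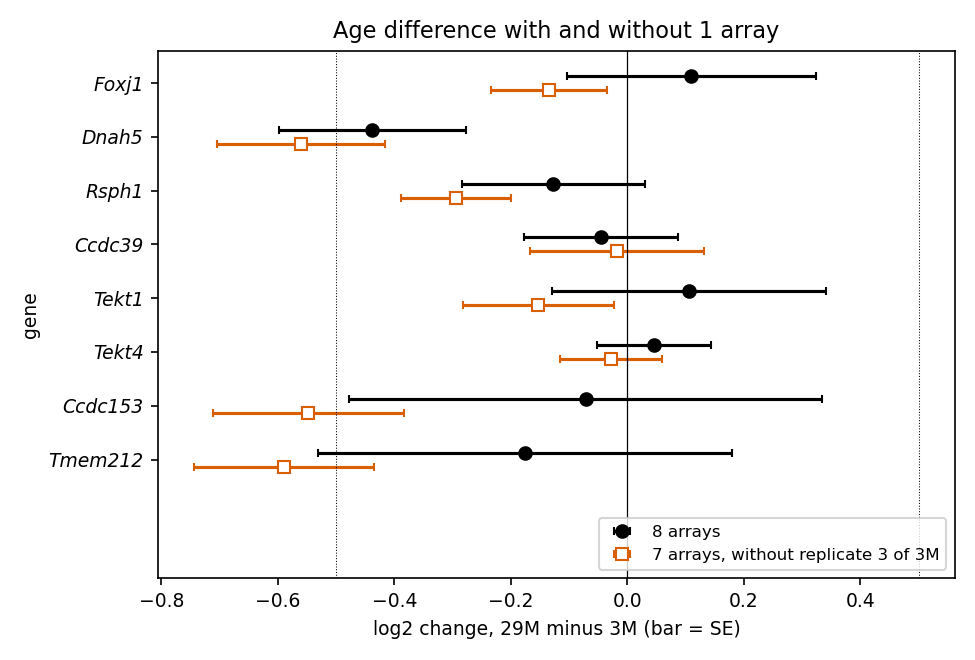
Log2 change from 3M to 29M of each gene with its SE, for all 8 arrays (filled circles) and without replicate 3 of 3M (open squares); dotted lines mark the change of 0.5 that a call requires. The squares lie to the left of 0 for all 8 genes and the circles for 5 of 8, and none of the changes was called.

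With all 8 arrays kept, 6 of the 8 genes varied together, and Ccdc39 and Dnah5 followed them less closely. Without replicate 3 of 3M, Dnah5 no longer stood apart from Tekt4 in this. Over the 8 arrays the 10 pairs among Foxj1, Rsph1, Tekt1, Ccdc153 and Tmem212 had Pearson correlations of 0.80 to 0.96. The same pairs had 0.49 to 0.90 without replicate 3 of 3M. Tekt4 had 0.70 to 0.94 with these 5 genes over 8 arrays, and 0.25 to 0.79 without that array. Dnah5 had 0.31 to 0.66 with the same 5, and 0.34 to 0.78 without that array. Ccdc39 had -0.13 to 0.14 with all 7 others, and -0.03 to 0.71 without that array. All of these values share the same 8 arrays, so the pairs are not independent of each other. The mean deviation of the 8 genes from their own 8-array means was 0.08, 0.27, -0.61 and 0.40 in 3M and -0.12, -0.04, 0.05 and -0.03 in 29M, for replicates 1 to 4. The SD of this mean was 0.45 among the young samples and 0.07 among the old ones. Replicate 3 of 3M was the lowest array and replicate 4 of 3M the highest.

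Other genes of motile cilia, listed by role with earlier results of these data known, had almost the same profile. The mean deviation of the 119 that were above background everywhere was 0.08, 0.18, -0.41 and 0.28 in 3M and -0.05, -0.08, 0.00 and -0.01 in 29M. It correlated with that of the 8 genes at r = 0.99 (Spearman's rho 0.98, 8 arrays), at 0.97 without replicate 3 of 3M, and at 0.94 over the 6 arrays left without replicates 3 and 4 of 3M, the most extreme pair. The 44 genes of intraflagellar transport and the primary cilium stayed between -0.04 and 0.06 on every array and had r = 0.00. Neuronal markers stayed between -0.11 and 0.08 (r = -0.31).

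Choroid plexus genes moved with the cilium genes over all 8 arrays, and less closely without the most extreme ones. Their mean deviation was -0.08, 0.33, -0.82 and 0.40 in 3M and 0.15, -0.20, 0.20 and 0.04 in 29M, with r = 0.91 to the 8 genes over 8 arrays, 0.70 without replicate 3 of 3M, and 0.50 over the 6 arrays without replicates 3 and 4 of 3M. Of the 23 genes 21 were lowest in that array, and the 3 brightest are given here. Ttr, the thyroid hormone carrier of the choroid plexus, measured 18.28, 18.28, 18.07 and 18.28 in replicates 1 to 4 of 3M and 18.23, 18.04, 18.31 and 18.29 in replicates 1 to 4 of 29M. Enpp2 (autotaxin) measured 18.27, 18.29, 17.43 and 18.50 in replicates 1 to 4 of 3M and 17.91, 17.67, 18.38 and 17.96 in replicates 1 to 4 of 29M, and Clic6, a chloride channel protein, measured 14.78, 15.24, 14.11 and 15.13 in replicates 1 to 4 of 3M and 15.12, 14.61, 15.21 and 15.19 in replicates 1 to 4 of 29M. None of the 23 was called, with a median change of 0.18, and of -0.17 without replicate 3 of 3M. The 12 ependymal genes outside the axoneme had deviations of -0.09, 0.10, -0.48 and 0.22 in 3M and 0.08, 0.03, 0.16 and -0.02 in 29M, and r = 0.87 over 8 arrays, 0.53 without replicate 3 of 3M and 0.12 over the same 6 arrays. Of these 12 genes 2 were called higher and 0 lower in 29M, where 1.58% and 0.699% of all genes were. Aqp4 and Gja1 of this list were also in the astrocyte list, so its values are not those of ependymal cells alone. Among the other marker lists, microglial genes lay between -0.52 and -0.18 in 3M and between 0.07 and 0.46 in 29M, with r = 0.00 to the 8 genes over 8 arrays and -0.84 without replicate 3 of 3M. Endothelial genes had r = -0.11 over 8 arrays and -0.74 without that array. The astrocyte, oligodendrocyte, meningeal and red blood cell lists then had r from -0.42 to 0.40. Without that array the 8 genes were lower in 29M and microglial and endothelial genes higher, so these r in part restate the difference between the ages. The part of microglia or endothelium in the values of the 8 genes was not tested. How much ependyma and choroid plexus each dissection held was not measured, and their part in the values was not tested.

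**Figure D3:**
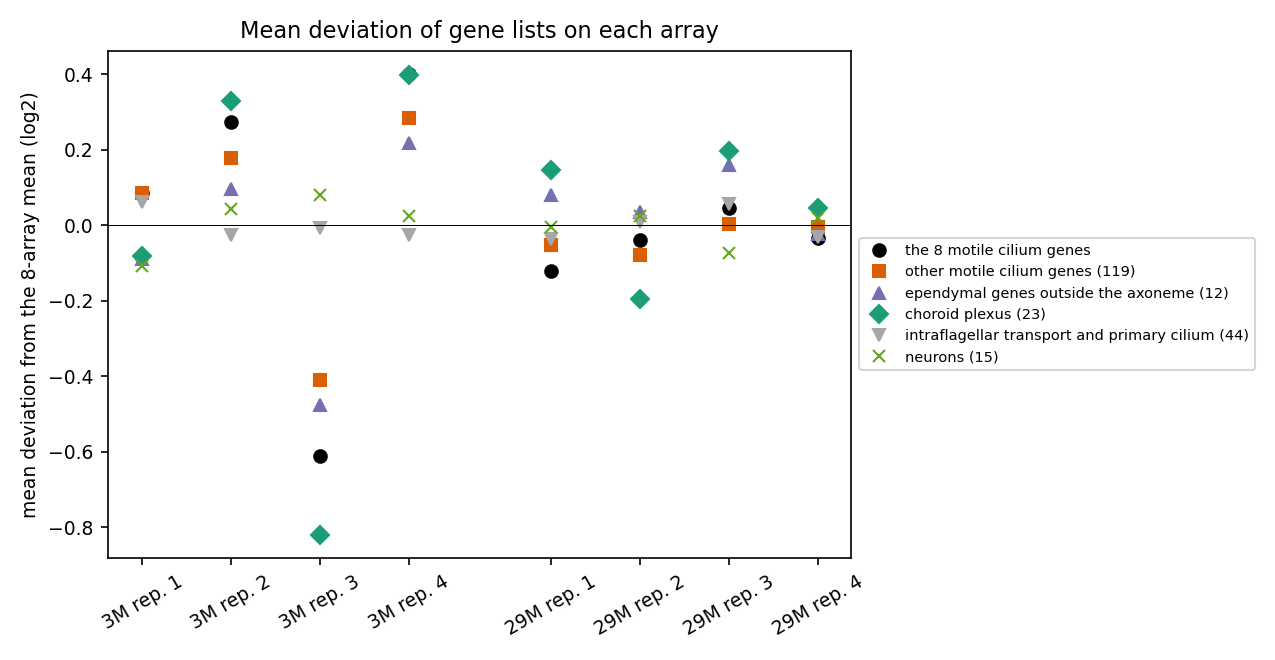
Mean deviation (log2) of 6 gene lists from their 8-array means on each array, with the number of genes in brackets; replicates have no order. The 8 genes, the other motile cilium genes, the ependymal genes and the choroid plexus genes are all lowest in replicate 3 of 3M, while the primary cilium and neuronal genes lie near 0 on every array.

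How far replicate 3 of 3M stood apart was read from its difference to the mean of the other 3M arrays. That difference had a median of -0.82 over the 8 genes and of -0.00 over all 16050 genes above background. It was -0.5 or lower in 5 of the 8 genes, in 65 of 127 other motile cilium genes, in 18 of 23 choroid plexus genes and in 0 of 44 genes of the primary cilium. The same held for 6 of 12 ependymal genes outside the axoneme, 3 of 5 red blood cell genes, 3 of 14 microglial genes and 2 of 12 meningeal genes. No neuronal, astrocyte, oligodendrocyte or endothelial marker was this low. Among all genes above background 4.33% were this low. A stricter count, chosen after these values were seen, took the genes that were lowest in this array by at least 0.5 below every other array. These were 219 genes, 1.36% of those above background. They held 4 of the 8 genes (Foxj1, Tekt1, Ccdc153 and Tmem212), 32 of 119 cilium genes and 12 of 23 choroid plexus genes. They also held 4 of 12 ependymal genes outside the axoneme and none of the primary cilium or neuronal genes. Replicate 1 of 3M had more such genes, 379, replicate 4 of 3M had 150, and the 5 remaining arrays had 0 to 54. In each of these 7 arrays 0 or 1 of the 119 cilium genes met the condition. The list of 219 also held 167 genes that belong to none of the lists used here.

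**Figure D4:**
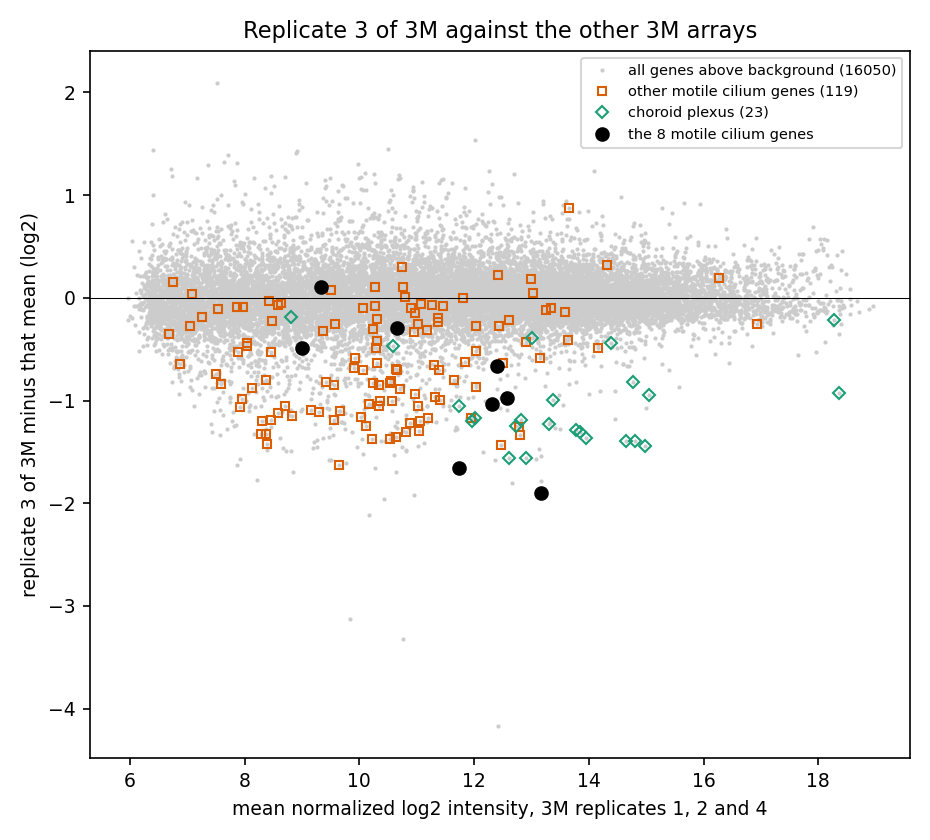
Difference of replicate 3 of 3M from the mean of replicates 1, 2 and 4 of 3M, against that mean (both log2), for each gene above background on all arrays. All genes centre on 0 (grey), while most motile cilium (orange) and choroid plexus genes (green) and 7 of the 8 genes (black) lie below it, with Ccdc153 at -1.90 the lowest of the 8.

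Of the 127 other motile cilium genes 1 was higher and 1 was lower in 29M, against 1.58% and 0.699% of all genes. Tppp3, a tubulin-binding protein that other brain cells also make, measured 12.75, 12.83, 12.48 and 13.15 in replicates 1 to 4 of 3M and 13.35, 13.32, 13.44 and 13.65 in replicates 1 to 4 of 29M, a change of 0.63 (SE 0.14, adjusted p 0.0659). Every 29M array lay above every 3M array, as in 6.31% of all genes. Iqcg, a subunit of the dynein regulatory complex that links neighbouring doublets, measured 11.43, 11.94, 11.80 and 12.04 in replicates 1 to 4 of 3M and 11.30, 11.28, 11.06 and 11.13 in replicates 1 to 4 of 29M, a change of -0.61 (SE 0.13, adjusted p 0.0597). Its 29M arrays all lay below the 3M arrays, as in 5.18% of all genes, and replicate 3 of 3M was not low. Across the alternatives, Tppp3 was called in 11 of 22 and Iqcg in 9 of 22, with 1 sign each. Neither of these genes tracked the 8 genes closely (r = 0.30 and 0.21). On 7 arrays, with replicate 3 of 3M left out, both kept their sign, at 0.53 and -0.61, but had adjusted p-values of 0.125 and 0.128. The median change of the 127 was -0.05, with 84 below 0, and without replicate 3 of 3M it was -0.22, with 102 below 0.

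Without that array 5 of the 127 were called lower, against 0.613% of all genes, and 0 were called higher, against 1.01%. They were Dnah10 at -0.83 (adjusted p 0.0300), Rsph14 at -0.64 (adjusted p 0.0554), Cfap65 at -0.64 (adjusted p 0.0786), Tspan1 at -0.66 (adjusted p 0.0862) and Dnali1 at -0.56 (adjusted p 0.0988). The dimmer other probes of Dnah10 were then at -0.04 (adjusted p 0.915) and 0.11 (adjusted p 0.783) in limma, and neither was called. Dnah10 is a heavy chain and Dnali1 a light intermediate chain of the inner dynein arms, Rsph14 belongs to the radial spokes and Cfap65 to the cilia and flagella associated proteins. That array was singled out because it was low in many cilium genes, and leaving it out lowers their change by itself. The shares of all genes are therefore no like measure for these counts. The number called depended on the processing. Still without that array it was 0 with processed signals, both when scaled to the 75th percentile and when variance-stabilised. It was 8 after quantile normalization and 2 with slide as a block, with medians between -0.25 and -0.21 in all 4 cases.

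By role, the inner dynein arms, which shape the bend of the cilium, had the lowest median of the 8 roles. It was -0.25, and all 7 genes were below 0 at their brightest probe, although none was called. The lowest were Dnah10 at -0.43 (SE 0.34, adjusted p 0.569) and Dnah6 at -0.42 (SE 0.24, adjusted p 0.424). Dnali1 was at -0.30 (SE 0.24, adjusted p 0.563), Wdr63 at -0.25 (SE 0.09, adjusted p 0.203) and Dnah1 at -0.20 (SE 0.13, adjusted p 0.464). Dnah2 was at -0.15 and Wdr78 at -0.01. At their brightest probe, Wdr63 and Dnah1 were not low in replicate 3 of 3M, and their change without it was -0.24 and -0.21. Not all probes of these genes gave the same picture, since the other probes of Dnah10 were at -0.09 and 0.09 and that of Wdr78 at 0.27. The other probe of Wdr63 was at -0.41, and at -0.68 (adjusted p 0.0421) without replicate 3 of 3M, which passes the call. Its change thus depended on that array, unlike that of the brightest Wdr63 probe. The median of the 7 genes was -0.40 without replicate 3 of 3M.

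Outer dynein arm genes had a median of -0.05 over 9 genes. Among them Ttc25, a docking protein of the outer arm, measured 7.95, 7.75, 7.79 and 7.93 in replicates 1 to 4 of 3M and 7.32, 7.44, 7.68 and 6.82 in replicates 1 to 4 of 29M, a change of -0.54 (SE 0.16, adjusted p 0.144) with no overlap between the ages. Of all genes 5.18% were separated in this direction. The other probe of Ttc25 was at -0.12 (adjusted p 0.749). The calcium-binding Efcab1 was at 0.19, the highest of this role. The 9 assembly factors, which fold dyneins in the cytoplasm, had a median of -0.07, from -0.33 for Dnaaf5 to 0.32 for Lrrc6. Radial spoke and central pair genes had a median of -0.04 over 18 genes. In this role Spef1, a microtubule-bundling protein of the central pair, measured 12.90, 13.11, 13.17 and 12.94 in replicates 1 to 4 of 3M and 12.69, 12.66, 12.70 and 12.66 in replicates 1 to 4 of 29M. Its 29M arrays lay below every 3M array, as in 5.18% of all genes, and within 0.04 of each other. The Spef1 change of -0.36 (SE 0.08, adjusted p 0.0804) passed the adjusted p but not the change of 0.5. Spag16, a central pair protein, was at 0.60 (SE 0.36, adjusted p 0.444), the highest value of this role.

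Ruler and dynein regulatory complex genes had a median of -0.04 over 14 genes, with Gas8 at 0.12 as the highest among genes above background on all arrays. Tektins and proteins inside the doublet had a median of -0.02 over 23 genes, with Tekt2 at -0.25 (SE 0.09, adjusted p 0.198) as the lowest. The 8 regulators of multiciliated cell fate had a median of 0.07, from -0.42 for Rfx3, whose probes disagreed in sign, to 0.15 for Deup1, whose other probes were at -0.18 and -0.14. The 39 remaining axoneme and ependymal cilium genes had a median of -0.09, from -0.52 (SE 0.16, adjusted p 0.149) for Tspan1 to 0.28 for Lrguk. Without replicate 3 of 3M the medians of all roles but the regulators (0.04) lay between -0.40 and -0.14.

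**Figure D5:**
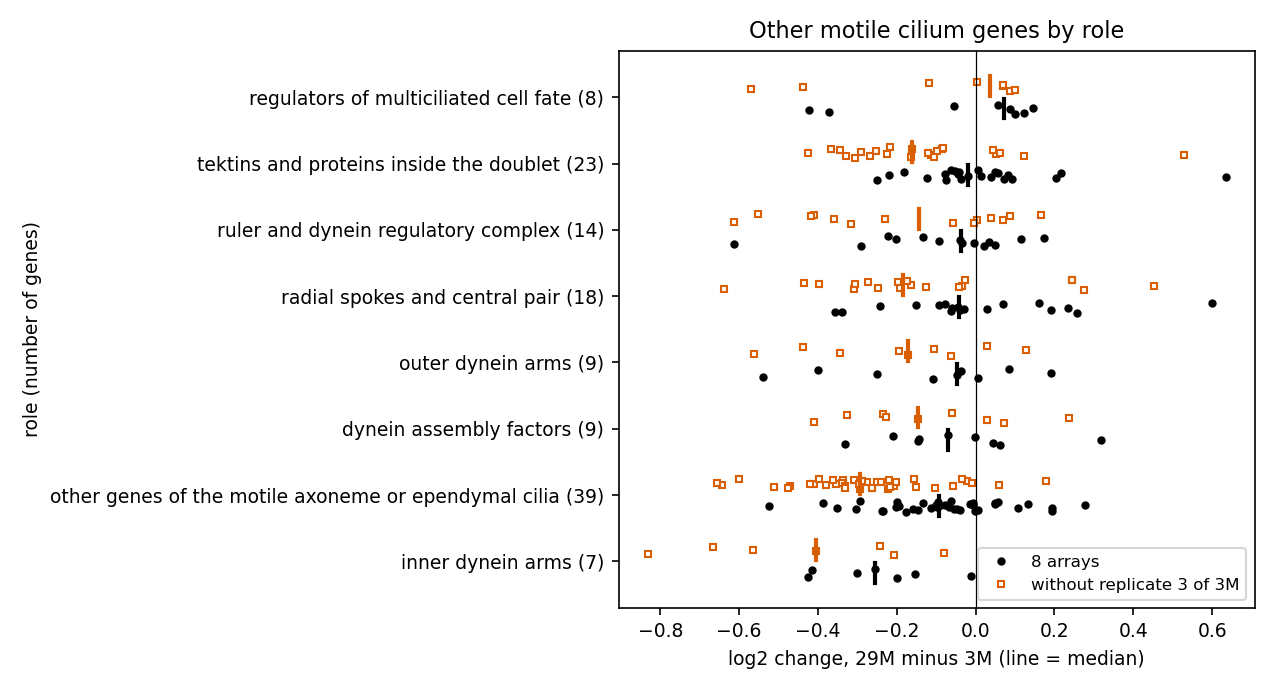
Log2 change from 3M to 29M of the other motile cilium genes by role, for all 8 arrays (black) and without replicate 3 of 3M (orange), with a line at each median and the number of genes in brackets. All 7 inner dynein arm genes lie below 0 at their brightest probe, and in each role the orange median lies to the left of the black one.

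The genes whose profile was most like the mean of the 8 genes were sought among 15912 genes above background, excluding the 8. The first 10 were Odf3b, Armh1, Ttc21a, Crygn, Fbxl13, Hdc, Fam166c, 1700012B09Rik, Dynlrb2 and Ttll6, with Pearson r from 0.982 to 0.991 over 8 arrays. Without replicate 3 of 3M in the ranking, 4 of these 10 were still among the first 10. The r of the 10 was then 0.946 to 0.990. Odf3b, Fbxl13 and Dynlrb2 were in the list of motile cilium genes, Hdc (histidine decarboxylase) was in that of ependymal genes, and none was in that of the choroid plexus. Their changes with age were -0.27 to -0.01, and none was called. Of the first 100 genes 37 were in the cilium list and 2 in the choroid plexus list. Over the whole lists, 64 of 119 cilium genes (53.8%), 15 of 22 choroid plexus genes (68.2%) and 0 of 43 primary cilium genes had r over 0.8. So did 3 of 12 ependymal genes outside the axoneme (25%), and 2.26% of all genes. Without replicate 3 of 3M these were 41.2% of the cilium genes, 18.2% of the choroid plexus genes and 33.3% of the ependymal genes (4 of 12), against 4.49% of all genes.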

How the data were processed

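Per the file headers, the arrays were scanned and read with Agilent Feature Extraction 10.7.3.1. The authors deposited for each array the linear intensity of every spot, not normalized between arrays, with flags. A deposited table of the series held mean local backgrounds in all 8 columns (tolerance 0.001), 7 of them of another sample than named, and was not used. Median spot intensities, without control and outlier spots (127 to 190 an array), were variance-stabilised by an implementation of that model made for this purpose (quantile 0.9, 7 iterations) in place of the original package. The resulting log2 scale, computed here, understates changes of dim probes. Each probe with at least 3 usable arrays a group was tested with limma 3.58.1 (R 4.3.3) for age, two-sided, with Benjamini-Hochberg adjustment over 39408 probes. On simulated data with 39429 probes, of which 200 changed, 86% of log2 changes of 1 and 95% of those of 2 were recovered, and 6.70% of calls were false. The simulated noise was independent between probes, and smaller changes were not simulated. These shares therefore do not cover shifts that many genes share on 1 array. Accessions were matched to RefSeq genes of GRCm38.p6 (26055 probes), and a gene has the value of its brightest tested probe. Samples were grouped by title.

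The 8 genes and all lists were chosen with earlier results of these data known. Named are the 8 genes, called cilium genes, the largest rise and fall of each role, the 10 genes most like the 8, and the 3 brightest choroid plexus genes. The other inner arm genes and those called without replicate 3 of 3M were named after their values were seen. Replicate numbers did not pair samples (same-number r of -0.24, 0.21, -0.23 and 0.07). Alternatives were other normalizations, blocks and weights, and leaving out each array. Those that combine a setting with leaving out replicate 3 of 3M were chosen after seeing the data.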

Additional observations from a re-analysis of the deposited data

Results flagged for a closer look

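Over 40 sets of 4 arrays examined for a single distant array (each gene of the 8 and each list, by age), 1 stood apart, where chance gives 2. It was the microglial marker list in replicate 4 of 29M, whose mean deviation was 0.07 against 0.45 to 0.46 in the other 29M arrays, a gap of 0.971 of the range of that group. The 8 cilium genes were at -0.03 in that array and gave no such gap in either age. In replicate 3 of 3M the gaps of the 8 genes stayed under the 95% critical value for 4 samples.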

How the results depend on the processing

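Under all 22 alternatives 0 of the 8 genes were called. Dnah5 stayed between -0.58 and -0.34 and Rsph1 between -0.44 and -0.04, always below 0, and the median of the 8 genes lay between -0.33 and 0.07. Causes of the shifts below were not tested. Tekt4 turned to -0.12 with processed signals scaled to the 75th percentile, -0.090 with stabilised processed signals and -0.023 with array weights, where Tekt1 turned to -0.055. Ccdc39 turned to 0.017 with slide as a block. Leaving out 1 array gave Foxj1 -0.13 to 0.23, Tekt1 -0.15 to 0.25, Tekt4 -0.028 to 0.087, Ccdc39 -0.18 to 0.034, Ccdc153 -0.55 to 0.20 and Tmem212 -0.59 to 0.054. The lowest value came without replicate 3 of 3M for all of these but Ccdc39 (without replicate 1).

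With replicate 3 of 3M left out together with another setting (chosen after seeing the data), Foxj1, Tekt1 and Tekt4 turned below 0. They were at -0.11, -0.16 and -0.030 with slide as a block (Ccdc39 at 0.028), at -0.16, -0.14 and -0.22 with the 75th percentile, at -0.16, -0.17 and -0.059 after quantile normalization, and at -0.13, -0.11 and -0.18 with stabilised processed signals. Called lower among the other motile cilium genes were then 2, 0, 8 and 0, and 0 were called higher each time.

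With all arrays, the count of these genes called lower was 0 with the 75th percentile, with stabilised processed signals and with the replicate block, 3 with array weights, and 0 to 5 without 1 array. The count called higher was 0 with slide as a block and 0 to 1 without 1 array. Tppp3 lost its call without each array but replicates 1 and 4 of 3M, and Iqcg without each array but replicate 1 of 3M, with adjusted p-values up to 0.181 and 0.281 over all alternatives.

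Of all probes, 491 were higher and 322 lower. The replicate block gave 267 and 145, array weights gave 843 and 664, and stabilised processed signals gave 171 lower. Leaving out 1 array gave 266 to 824 higher and 135 to 641 lower, with the most in both directions without replicate 1 of 3M. The fewest higher came without replicate 1 of 29M and the fewest lower without replicate 2 of 3M. Of the first 10 genes most like the 8, 6 were also among the first 10 by deviations from the group means, and 4 without replicate 3 of 3M. Depth of signal limited few of the values, since all 8 genes were well above background on every array, and 8 of the 127 other cilium genes were not.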
